A study of Mus musculus with 30 samples.

Results

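The mitochondrial ribosomal protein genes described here are all genes on the array whose symbol starts with Mrpl (large subunit) or Mrps (small subunit) followed by a digit. There were 80 of them, called members below, among 11463 genes tested: 50 Mrpl and 30 Mrps genes, 3 of the 80 being annotated as pseudogenes (Mrpl23-ps1, Mrpl27-ps and Mrps36-ps2). They were measured by 124 probes, all of which passed the filter on blank values, so no member was lost to it. The members lie on 18 chromosomes.

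Inguinal mammary glands were taken from mice of the 129sv background at 19 weeks of age, and 1 gland sample was hybridised per array. The 4 groups were Her2/Neu+/IFNAR1-/- (9 arrays), which carry the Her2/Neu oncogene and lack IFNAR1, a chain of the type I interferon receptor; Her2/Neu+ (6 arrays), which carry the oncogene alone; IFNAR1-/- (8 arrays), which lack the receptor chain alone; and WT (7 arrays), which have neither change. The promoter that drives the oncogene, the sex of the mice and whether the glands held tumours are not given in the sources used here. Each value is the log2 ratio of gland RNA (Cy5) over a universal mouse reference RNA (Cy3), so 0 means the same signal in gland and reference, and a difference of 1 between groups is a 2-fold difference.

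Mitochondrial ribosomes sit in the mitochondrial matrix and translate the few proteins encoded by mitochondrial DNA, all of them subunits of the respiratory chain and ATP synthase. Their RNA comes from the mitochondrial genome, whereas every protein of both subunits is encoded in the nucleus, made in the cytosol and imported. Assembly of a working ribosome therefore needs many nuclear genes together, and loss of single subunits impairs oxidative phosphorylation in mice and humans. The mouse mammary gland holds a fat pad with embedded epithelium, and both use mitochondria.

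Some features of the arrays bear on all values below. Each array held 17485 to 20801 values, and no signal intensities are in the table used here. Signal over background is therefore unknown, and precision is limited by how many arrays there are. Between 2639 and 10385 values per array were identical in every digit to another value of that array, and these are named repeated values. They made up 16.9% of the members' probe values and 33.9% of all values, and averaged 32.7 ± 12 member values per array in Her2/Neu+/IFNAR1-/-, 27.0 ± 21.9 in Her2/Neu+, 11 ± 6.48 in IFNAR1-/- and 11.7 ± 2.69 in WT glands (SD, n = 9, 6, 8 and 7). Where repeated values lie was not summarised, but some members with many of them stood near the array median. Mrpl1, with 28 repeated values, was at -0.0022 on Her2/Neu+ array 113 and at -0.0064 on WT array 55. The medians of these arrays were -0.0031 and -0.0066. The block numbers of the arrays imply 8 slides, and none of them holds arrays of both groups of a pairwise comparison, so slide and group cannot be told apart there. Fat markers were high in all groups (6 of 8 listed genes measured, mean log2 ratio 4.83 to 5.70 over the arrays), as were basal epithelial markers on most arrays (5 of 6 measured, -0.88 to 2.94). Skeletal muscle markers (5 of 12 measured) stood at 4.40 to 5.19 in IFNAR1-/- arrays 41, 42 and 44 and at 1.71 to 4.43 in 3 Her2/Neu+/IFNAR1-/- arrays (105, 106 and 1 more), against 1.02 or less on every other array. Ifnar1, the gene named in the knockout label, averaged 1.04 ± 1.23 (SD, n = 8 arrays with a value) in Her2/Neu+/IFNAR1-/- and 0.77 ± 1.45 in Her2/Neu+, and 0.20 ± 0.89 in IFNAR1-/- and 0.42 ± 0.92 in WT glands, so its probes do not separate the groups; whether they lie in the deleted part of the gene is not given in the sources used here. In such bulk tissue, fewer cells of a type and less RNA per cell cannot be told apart.

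Members sat low relative to the reference RNA, a pool from cell lines. The mean log2 ratio over 30 arrays was below 0 for 53 of 80 members, with a median over members of -0.21, whereas 45.6% of all genes lay below 0, with a median of 0.07. The members also varied less: the SD over the arrays had a median of 0.585 for members and 0.745 for all genes. The highest mean ratios belonged to Mrps21 (1.07), Mrpl24 (0.86) and Mrps6 (0.79), and the lowest to Mrpl13 (-1.63), Mrps22 (-1.05) and Mrpl28 (-1.0). A ratio to the reference is no measure of abundance, so these are positions relative to the reference and not levels to be set against each other.

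The steadiest of the named members was Mrpl24, a large-subunit protein. Its log2 ratio averaged 0.96 ± 0.24 in Her2/Neu+/IFNAR1-/-, 0.87 ± 0.14 in Her2/Neu+, 0.77 ± 0.19 in IFNAR1-/- and 0.81 ± 0.12 in WT glands (SD, n = 9, 6, 8 and 7). Mrpl12, which forms the flexible stalk of the large subunit that recruits translation factors, averaged 0.08 ± 0.60 in Her2/Neu+/IFNAR1-/-, 0.32 ± 0.56 in Her2/Neu+, 0.28 ± 0.48 in IFNAR1-/- and 0.57 ± 0.22 in WT glands. Mrps12, a small-subunit protein of the decoding centre, averaged -0.56 ± 0.92 in Her2/Neu+/IFNAR1-/-, -0.22 ± 0.87 in Her2/Neu+, -0.21 ± 0.51 in IFNAR1-/- and -0.06 ± 0.27 in WT glands. For Mrpl12 and Mrps12 the lowest mean was that of Her2/Neu+/IFNAR1-/- and the highest that of WT glands, but the groups overlapped widely and no comparison passed the threshold (limma, Benjamini-Hochberg adjusted p over all genes of 0.533 for Mrpl12 and 0.618 for Mrps12 in the oncogene comparison).

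Taken as 1 value per array, the mean over the members was lower in glands with the oncogene. It was -0.29 ± 0.17 in Her2/Neu+/IFNAR1-/- and -0.30 ± 0.21 in Her2/Neu+ glands, and -0.19 ± 0.17 in IFNAR1-/- and -0.06 ± 0.18 in WT glands (SD, n = 9, 6, 8 and 7). The lowest, median and highest arrays were at -0.45, -0.35 and 0.13 in Her2/Neu+/IFNAR1-/-, at -0.48, -0.34 and 0.02 in Her2/Neu+, at -0.41, -0.16 and 0.07 in IFNAR1-/- and at -0.24, -0.06 and 0.22 in WT glands. The groups overlapped, with 1 high array in each oncogene group, Her2/Neu+/IFNAR1-/- 103 and Her2/Neu+ 115. The 50 genes named Mrpl averaged -0.28, -0.34, -0.17 and -0.08, and the 30 named Mrps -0.31, -0.23, -0.22 and -0.01, in Her2/Neu+/IFNAR1-/-, Her2/Neu+, IFNAR1-/- and WT glands. On the single inferred slide that holds Her2/Neu+/IFNAR1-/- and WT arrays, the mean was -0.42 on Her2/Neu+/IFNAR1-/- array 102 and -0.17 to -0.01 on WT arrays 53, 54 and 57. On the slide that holds Her2/Neu+ and IFNAR1-/- arrays, it was -0.46 and -0.18 on Her2/Neu+ arrays 114 and 119 and -0.16 on IFNAR1-/- array 41.

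The member mean moved from array to array with that of the complex I subunits, the first enzyme of the respiratory chain, some of whose subunits are made by mitochondrial ribosomes. The 37 nuclear complex I genes averaged 0.20 ± 0.31 in Her2/Neu+/IFNAR1-/-, 0.04 ± 0.63 in Her2/Neu+, 0.52 ± 0.32 in IFNAR1-/- and 0.83 ± 0.35 in WT glands. Across the 30 arrays the correlation of both means was 0.858 (Pearson; Spearman 0.869), and 0.858 without the 2 arrays farthest from the median. Within groups Pearson's r was 0.927 in Her2/Neu+/IFNAR1-/-, 0.694 in Her2/Neu+, 0.859 in IFNAR1-/- and 0.967 in WT glands. Spearman's correlation was 0.833, 0.371, 0.714 and 0.929 in the same order. With the 71 cytosolic ribosomal protein genes Pearson's r was -0.11 across the 30 arrays, and -0.36 without the 2 farthest. These are descriptions without a test: the points share their array, reference RNA and processing. Among 10 such relations computed, r was 0.53 with brown and beige fat markers (4 of 7 measured), 0.32 with adipocyte markers (0.17 without the 2 farthest arrays), 0.06 with skeletal muscle markers (-0.14 without them), -0.51 with luminal epithelial markers (5 of 8 measured), -0.46 with macrophage markers and 0.18 with the number of repeated values. The remaining relations were -0.39 with cell cycle genes (-0.45 without the 2 farthest arrays) and -0.35 with B cell markers (-0.41 without them). Within groups, r with the number of repeated values was 0.43 in Her2/Neu+/IFNAR1-/-, 0.43 in Her2/Neu+, 0.28 in IFNAR1-/- and 0.83 in WT glands. With luminal markers it was -0.48, -0.19, -0.61 and -0.83, and with brown and beige fat markers 0.84, 0.01, 0.78 and 0.81, in Her2/Neu+/IFNAR1-/-, Her2/Neu+, IFNAR1-/- and WT glands. Spearman's correlation with luminal markers was 0.17, -0.66, -0.38 and -0.75 in Her2/Neu+/IFNAR1-/-, Her2/Neu+, IFNAR1-/- and WT glands. With brown and beige fat markers it was 0.50, 0.14, 0.71 and 0.75. The sign with luminal markers in Her2/Neu+/IFNAR1-/- glands thus depended on the measure. The part of cell composition in the member mean was not tested.

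**Figure D1:**
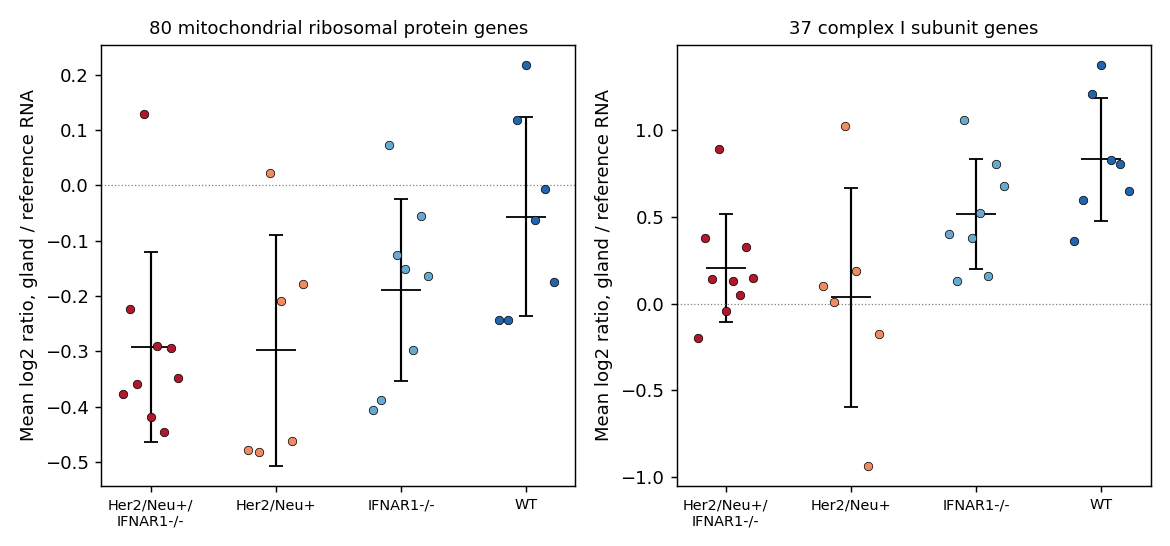
Mean log2 ratio of gland over reference RNA per array (points) for the 80 mitochondrial ribosomal protein genes (left) and 37 complex I subunit genes (right), by group, with bars for the group mean ± SD (n = 9, 6, 8 and 7 arrays). Both panels are lowest in the oncogene groups, with overlap. Arrays that are high on the left tend to be high on the right, less so in Her2/Neu+ glands (Spearman 0.371).

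The oncogene comparison, which averages the effect of Her2/Neu over both receptor states, asks what the oncogene does to gland expression. More members were lower than higher with the oncogene, and 4 fell past the threshold: Mrps36-ps2, Mrps36, Mrpl39 and Mrpl30. None rose past it. The 4 are 5% of the members, against 2.57% of all genes past the threshold in either direction. Both Mrps36 and its pseudogene copy Mrps36-ps2 are among them. Without the 3 pseudogenes, 3 of 77 members (3.9%) passed. At an unadjusted p under 0.05, 17 of 80 members (21.2%) were lower and 1 (1.25%) was higher, against 7.55% of all genes lower and 11.3% higher. The change was negative for 60 of 80 members (75%), against 42.6% of all genes. It had a median of -0.19 over the members, while the median over all genes was 0.07. Of the 295 genes that passed, 196 were higher and 99 lower. After quantile normalization of the arrays this split was 156 and 143, the median over all genes 0.02 and that of the members -0.22.

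Markers of several cell types moved in the same comparison. Of the basal epithelial markers 2 of 5 fell, the keratin Krt14 (-1.67 ± 0.44, adjusted p 0.0441) and the smooth muscle actin Acta2 (-0.86 ± 0.23, 0.0416), and 1 of 5 luminal markers rose, the adhesion molecule Epcam (2.10 ± 0.55, 0.0388). Of 4 brown and beige fat markers Cox7a1, a subunit of cytochrome c oxidase, fell (-1.29 ± 0.30, 0.0236), and of 6 macrophage markers the receptor Csf1r fell (-0.75 ± 0.20, 0.0377). These lists did not fall as a whole. The mean over the macrophage markers was 1.85 in Her2/Neu+/IFNAR1-/-, 1.625 in Her2/Neu+, 1.66 in IFNAR1-/- and 1.11 in WT glands. For brown and beige fat markers it was 3.88, 3.78, 3.51 and 4.01 in the same order. Of 18 cell cycle genes 3 rose, Mcm2 (1.40 ± 0.34), Cdk1 (1.27 ± 0.35) and Birc5 (1.03 ± 0.27). No adipocyte (6), skeletal muscle (5), B cell (3) or T cell (4) marker passed. As a mean over the list, basal markers ranged from 0.04 to 2.22 in Her2/Neu+/IFNAR1-/-, -0.88 to 2.46 in Her2/Neu+, -0.21 to 2.94 in IFNAR1-/- and 0.85 to 2.79 in WT glands, and luminal markers from -0.62 to 3.31, -0.76 to 2.42, -0.87 to 2.62 and -0.29 to 1.70 in Her2/Neu+/IFNAR1-/-, Her2/Neu+, IFNAR1-/- and WT glands. The part of these markers in the members' changes was not tested.

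Mrps36 was first named as a small-subunit protein and is now known as a component of the 2-oxoglutarate dehydrogenase complex of the citric acid cycle, which it helps to hold together. Its lowest, median and highest log2 ratios were -1.83, -0.70 and -0.17 in Her2/Neu+/IFNAR1-/-, -1.66, -0.74 and 0.14 in Her2/Neu+, -0.65, 0.02 and 0.80 in IFNAR1-/- and -0.33, 0.10 and 0.99 in WT glands. All 9 Her2/Neu+/IFNAR1-/- arrays lay below the IFNAR1-/- mean, and 5 of 6 Her2/Neu+ arrays lay below every WT array. The oncogene change was -0.89 ± 0.20 (SE), 1.86-fold lower, with an adjusted p of 0.0160. Both of its probes gave a lower mean in each oncogene group, with -0.65 and -0.98 in Her2/Neu+/IFNAR1-/- and -0.73 and -0.81 in Her2/Neu+, against 0.03 and 0.01 in IFNAR1-/- and 0.16 and 0.20 in WT glands.

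Mrps36-ps2 is annotated as a pseudogene copy of Mrps36 on chromosome 7, and its probe followed Mrps36 over the 30 arrays with r = 0.727. Its log2 ratios were -1.88, -1.21 and -0.17 (lowest, median and highest) in Her2/Neu+/IFNAR1-/-, -1.56, -0.46 and 0.03 in Her2/Neu+, -0.54, 0.01 and 0.26 in IFNAR1-/- and -0.29, -0.00 and 0.47 in WT glands. The oncogene change was -0.93 ± 0.17 (adjusted p 0.00382). Whether its probe reads transcripts of Mrps36 cannot be told from these data, so both are best read as 1 uncertain signal. In the oncogene comparison each kept its call in all 30 fits that left out 1 array. Of 14 other fits, 14 kept the call of Mrps36-ps2 and 13 that of Mrps36.

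Mrpl39 and Mrpl30 are large-subunit proteins. Mrpl39 had ratios of -2.15, -0.46 and 0.62 (lowest, median and highest) in Her2/Neu+/IFNAR1-/-, -2.55, -0.86 and 0.19 in Her2/Neu+, -0.22, 0.06 and 0.65 in IFNAR1-/- and -0.03, 0.17 and 0.81 in WT glands. Mrpl30 had ratios of -1.98, -1.07 and -0.21 in Her2/Neu+/IFNAR1-/-, -2.47, -1.27 and -0.60 in Her2/Neu+, -0.96, -0.63 and -0.15 in IFNAR1-/- and -0.81, -0.60 and -0.05 in WT glands. Both spread more widely in the oncogene groups, where some arrays lay far lower and others lay at the level of the other groups. The oncogene change was -1.0 ± 0.26 for Mrpl39 (2.00-fold lower, adjusted p 0.0388) and -0.72 ± 0.19 for Mrpl30 (1.64-fold lower, adjusted p 0.0416). These calls were close to the threshold. With the inferred slide as a random block the adjusted p was 0.0671 for Mrpl39 and 0.0988 for Mrpl30, and 0.0496 for Mrps36. Without the last inferred slide (Her2/Neu+ 114 and 119, IFNAR1-/- 41) the changes were -0.69 (adjusted p 0.147) and -0.65 (adjusted p 0.0975), and of 30 fits that each left out 1 array, 17 kept the Mrpl39 call and 12 the Mrpl30 call.

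The 6 arrays with high skeletal muscle markers, 3 in each receptor-deficient group, bear on these calls. Without them 1 member passed in the oncogene comparison, Mrps36-ps2, and the changes were -0.72 for Mrps36 (adjusted p 0.0807), -0.76 for Mrpl39 (adjusted p 0.120) and -0.77 for Mrpl30 (adjusted p 0.0739). The median change of the members was then -0.18, with 55 of 80 negative. On the 3 Her2/Neu+/IFNAR1-/- arrays among the 6, Mrps36 stood at -0.80, -0.69 and -1.51, against 0.44, 0.80 and 0.04 on the 3 IFNAR1-/- arrays. Mrps36-ps2 stood at -1.88, -1.34 and -1.78 on these Her2/Neu+/IFNAR1-/- arrays, against -0.13, 0.26 and -0.14 on the IFNAR1-/- arrays. The Her2/Neu+/IFNAR1-/- arrays with high muscle markers thus include the lowest and second lowest of their group for Mrps36-ps2. The part of muscle tissue in these values was not tested.

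**Figure D2:**
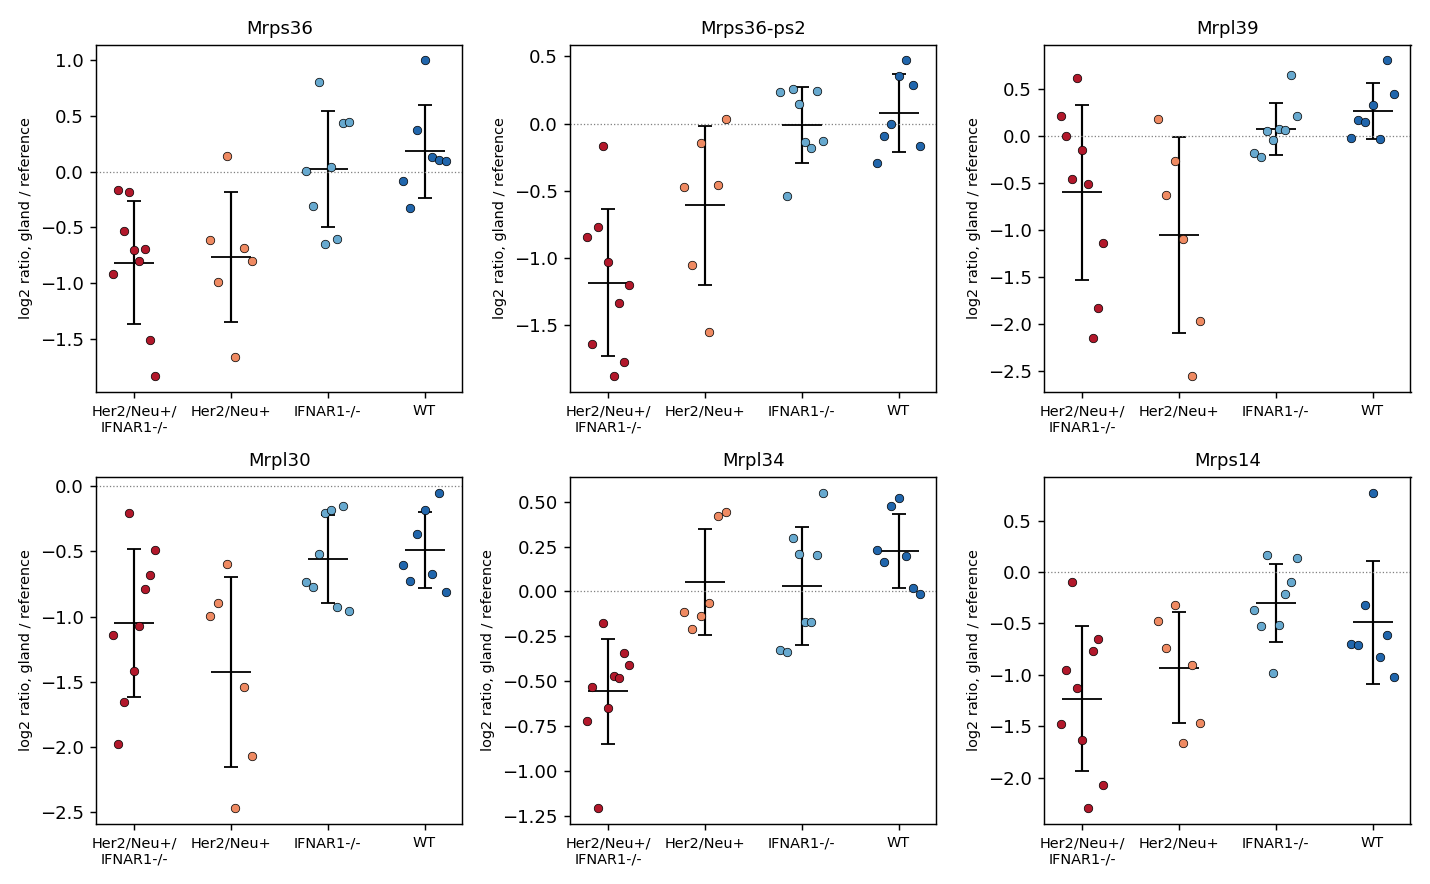
Log2 ratio of gland over reference RNA per array (points) for 6 members by group, with bars for the mean ± SD (n = 9, 6, 8 and 7). Mrps36, Mrps36-ps2, Mrpl39 and Mrpl30 fell past the threshold with the oncogene, and Mrpl34 is lowest in Her2/Neu+/IFNAR1-/- glands, with a mean of -0.56 against 0.06, 0.03 and 0.23 in Her2/Neu+, IFNAR1-/- and WT glands.

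Below the threshold the next member was Mrps14, a small-subunit protein near the decoding site, at -0.69 ± 0.21 (adjusted p 0.0822). The single member higher at an unadjusted p under 0.05 was Mrps11, a small-subunit protein named here after its values were seen, at 1.12 ± 0.49 (adjusted p 0.215). Repeated values made up 50% of its values, and 1 Her2/Neu+ array stood at 5.88, close to the limit of 6 that no value in the table exceeds.

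**Figure D3:**
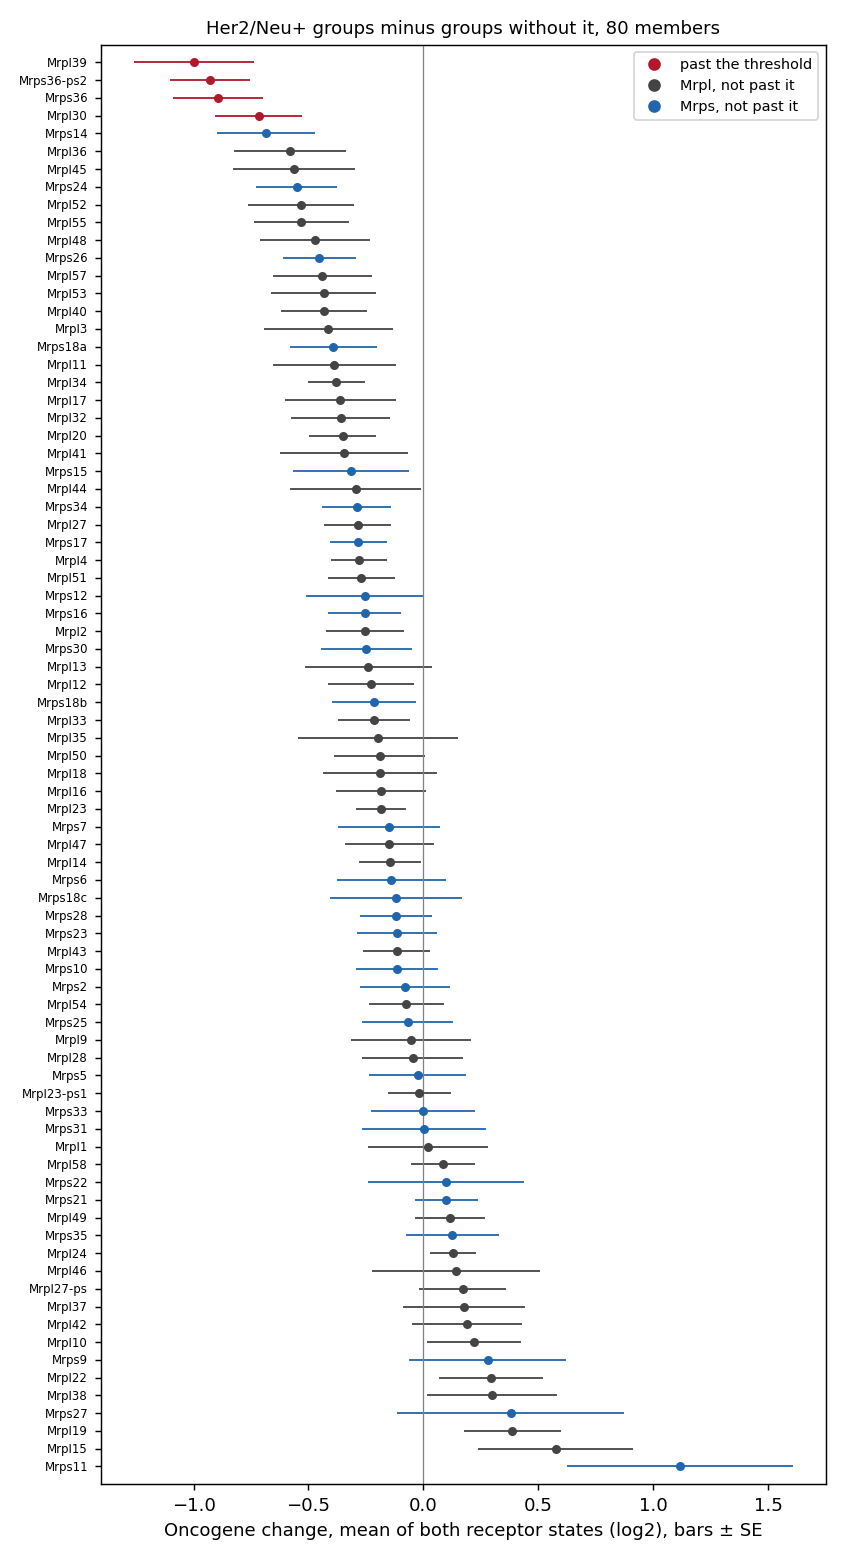
Oncogene change of each of the 80 members (log2, mean of both receptor states), sorted, with bars of ± 1 SE. Of the changes 60 lie below 0, and the 4 past the threshold are Mrpl39, Mrps36-ps2, Mrps36 and Mrpl30.

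The oncogene comparison joins 2 comparisons that share no array. In Her2/Neu+ against WT glands no member passed, and 15 genes of all did (0.131%). At an unadjusted p under 0.05, 12 members (15%) were lower and 0 higher, against 6.69% of all genes lower and 5.37% higher. The change was negative for 61 of 80 members (76.25%), against 51.5% of all genes, with a median of -0.19 against -0.02 over all genes. In Her2/Neu+/IFNAR1-/- against IFNAR1-/- glands 1 member passed, Mrps36-ps2 at -1.17 ± 0.23 (2.25-fold lower, adjusted p 0.0112), against 1.31% of all genes. There 10 members (12.5%) were lower at an unadjusted p under 0.05 and 1 was higher, against 4.96% and 13.5% of all genes. Of the members' changes 50 of 80 (62.5%) were negative, against 38.1% of all genes, with a median of -0.09 against 0.15. Quantile normalization shifted the median over all genes in that comparison to 0.04 and that of the members to -0.17, with 41 genes of all past the threshold higher and 67 lower, against 108 and 42 without it. In both comparisons 42 of 80 members (52.5%) were lower, compared with 23.0% of all genes, 35 of 37 complex I genes and 36 of 71 cytosolic ribosomal protein genes.

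The members with the smallest p in Her2/Neu+ against WT glands were Mrpl39 (-1.32 ± 0.39), Mrpl52 (-1.16 ± 0.35), Mrpl30 (-0.94 ± 0.29) and Mrps36 (-0.95 ± 0.30), with adjusted p-values of 0.158 to 0.171. Mrpl52, a large-subunit protein, was at -3.47, -0.96 and -0.43 (lowest, median and highest) in Her2/Neu+, and at -0.78, -0.31 and -0.18 in WT glands. Its low values were those of Her2/Neu+ arrays 114 and 119, at -3.05 and -3.47, and the other 4 Her2/Neu+ arrays lay between -0.98 and -0.43. Without the last inferred slide, which holds both arrays, its change was -0.31, and those of the other 3 were -0.72 for Mrpl39, -0.75 for Mrpl30 and -0.96 for Mrps36. Over all members, both of these arrays lay below the other 4 Her2/Neu+ arrays for 13 of 80 and above them for 15 of 80, against 13.8% and 14.4% of all genes. The median change of the members in this comparison was -0.25 without that slide.

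In Her2/Neu+/IFNAR1-/- against IFNAR1-/- glands the next members after Mrps36-ps2 were Mrpl34 (-0.59 ± 0.16, adjusted p 0.0660), Mrps14 (-0.93 ± 0.28, 0.0830) and Mrps36 (-0.84 ± 0.26, 0.0885). Mrps14 was at -2.30, -1.13 and -0.10 (lowest, median and highest) in Her2/Neu+/IFNAR1-/- and at -0.98, -0.29 and 0.16 in IFNAR1-/- glands, with 5 of 9 Her2/Neu+/IFNAR1-/- arrays below every IFNAR1-/- array. With the inferred slide as a random block, the adjusted p of Mrps36-ps2 was 0.0626 and no member passed. Without the 6 arrays with high muscle markers it was 0.0979, with a change of -0.93, and the member that passed was Mrpl19, named here after its values were seen. Mrpl19, a large-subunit protein, was at -0.45, -0.03 and 1.13 (lowest, median and highest) in Her2/Neu+/IFNAR1-/- and at -1.65, -0.78 and 1.2 in IFNAR1-/- glands, and its change over all arrays was 0.64 ± 0.28 (adjusted p 0.210). Its probe had repeated values on 73.3% of the arrays.

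**Figure D4:**
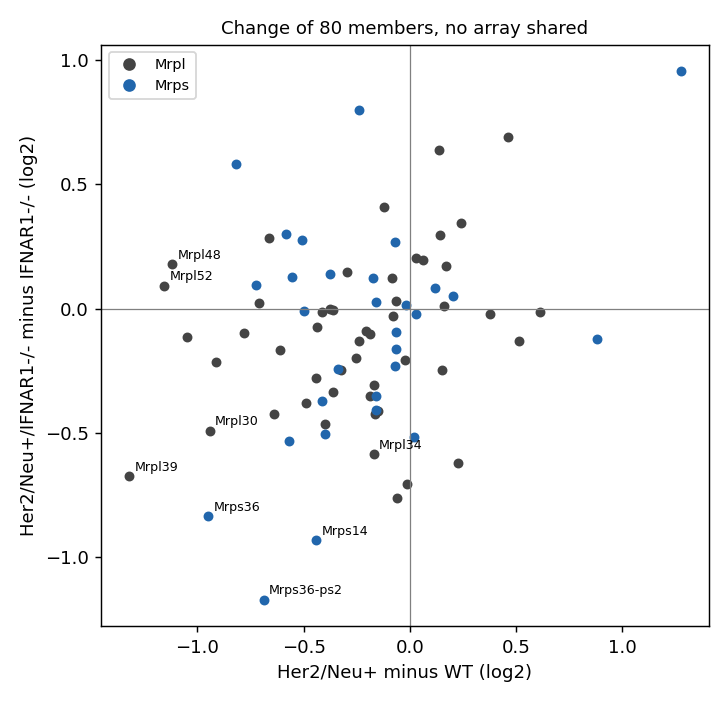
Change of each of the 80 members (log2) in Her2/Neu+ minus WT (horizontal) and in Her2/Neu+/IFNAR1-/- minus IFNAR1-/- glands (vertical), which share no array. The lower left field, lower in both, holds 42 members, and Mrpl48 and Mrpl52 are at -1.12 and -1.16 in the first comparison and at 0.18 and 0.09 in the second.

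The loss of IFNAR1 was compared without the oncogene, with it, and averaged over both. No member passed the threshold in any of the 3, and the members' shares at an unadjusted p under 0.05 were close to those of all genes. In IFNAR1-/- against WT glands 3 genes of all passed (0.0262%), and 4 members (5%) were lower at an unadjusted p under 0.05 and 0 higher, against 3.99% and 2.88% of all genes. In Her2/Neu+/IFNAR1-/- against Her2/Neu+ glands 0.0785% of all genes passed, and 4 members (5%) were lower and 3 (3.75%) higher, against 4.18% and 6.99%. Averaged over both oncogene states 0.0698% of all genes passed, and 4 members were lower and 2 higher, against 4.00% and 4.61%. The median change was -0.13, -0.04 and -0.07 in these comparisons, against -0.08, 0.11 and 0.02 over all genes. Negative changes were found for 59, 46 and 54 of 80 members (73.75%, 57.5% and 67.5%), against 58.1%, 40.9% and 47.5% of all genes. A larger share of members than of all genes was thus lower with receptor loss too.

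Mrpl34, a small protein of the large subunit measured by 10 probes, was the member with the smallest p for receptor loss. Its log2 ratios were -1.21, -0.48 and -0.18 (lowest, median and highest) in Her2/Neu+/IFNAR1-/-, -0.21, -0.09 and 0.44 in Her2/Neu+, -0.34, 0.01 and 0.55 in IFNAR1-/- and -0.01, 0.20 and 0.52 in WT glands. Of the 9 Her2/Neu+/IFNAR1-/- arrays, 8 lay below every Her2/Neu+ array and 8 below every IFNAR1-/- array. All 9 lay below every WT array, but Her2/Neu+/IFNAR1-/- against WT was not a comparison of the fit. The share of all genes with such counts was not computed, here or for other members named for a small p. The mean of Her2/Neu+/IFNAR1-/- glands was below that of Her2/Neu+ in 9 of its 10 probes, below that of IFNAR1-/- in 10 and below that of WT in 10. The change was -0.61 ± 0.18 against Her2/Neu+ (1.53-fold lower, adjusted p 0.207) and -0.59 ± 0.16 against IFNAR1-/- glands (0.0660), and averaged over oncogene states receptor loss gave -0.40 ± 0.13 (0.374). The interaction, which asks whether receptor loss acts differently with the oncogene, was -0.41 ± 0.25 (0.566).

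With the oncogene present, 3 members were higher in Her2/Neu+/IFNAR1-/- than in Her2/Neu+ glands at an unadjusted p under 0.05: Mrpl48 (1.17 ± 0.34, adjusted p 0.207), Mrpl52 (1.07 ± 0.33, 0.236) and Mrps6 (0.78 ± 0.34, 0.399). Mrpl48, a large-subunit protein, was at -0.09, 0.49 and 1.18 (lowest, median and highest) in Her2/Neu+/IFNAR1-/- and at -2.63, 0.01 and 0.49 in Her2/Neu+ glands. Her2/Neu+ arrays 114 and 119 again held the low values, -2.63 and -2.11, and the other 4 lay between -0.01 and 0.49. Mrps6, a small-subunit protein, was at -1.61 and -0.65 on these arrays and between 0.64 and 1.31 on the other 4. Without the last inferred slide the changes were 0.32 for Mrpl48, 0.22 for Mrpl52 and 0.07 for Mrps6. Mrps30, whose protein is found in the large subunit despite its name, was lower at -0.70 ± 0.28 (0.349), with 6 of 9 Her2/Neu+/IFNAR1-/- arrays below every Her2/Neu+ array. Mrpl58, a peptidyl-tRNA hydrolase that is built into the large subunit and rescues stalled ribosomes, was at -0.43 ± 0.20 in this comparison and at -0.35 ± 0.14 averaged over oncogene states (0.481). Mrpl9, a large-subunit protein, was at 0.57 ± 0.26 (0.543) in the averaged comparison.

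Without the oncogene, the members with the smallest p were Mrps28 (-0.59 ± 0.22), Mrps18c (-1.07 ± 0.40), Mrpl33 (-0.49 ± 0.22) and Mrpl18 (-0.73 ± 0.35), with adjusted p-values of 0.684 to 0.725. Mrps28, a small-subunit protein, was at -0.22, 0.07 and 0.97 (lowest, median and highest) in IFNAR1-/- and at 0.34, 0.59 and 1.47 in WT glands, with 6 of 8 IFNAR1-/- arrays below every WT array. Mrps18c, Mrps18a and Mrps18b are paralogs of 1 bacterial protein. Mrps18c was at -3.37, -1.01 and -0.64 in IFNAR1-/- and at -0.73, -0.39 and 0.69 in WT glands, and 7 of 8 IFNAR1-/- arrays lay below every WT array. IFNAR1-/- array 41 stood apart at -3.37, and without it the change was -0.77. The same array held the lowest Mrpl18 value, -3.10, and without it the change of Mrpl18 was -0.46. Mrps18a, found in the large subunit, and Mrps18b, of the small subunit, changed by 0.01 ± 0.26 and -0.32 ± 0.26 in the same comparison.

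Since the gene removed in IFNAR1-/- mice lies on chromosome 16, the members on that chromosome were looked at separately. They are Mrps6, with 11 protein-coding genes between it and Ifnar1, Mrpl39, with 91, and Mrpl40, with 448. In IFNAR1-/- against WT glands Mrps6 was at -0.10 ± 0.33, Mrpl39 at -0.19 ± 0.37 and Mrpl40 at -0.01 ± 0.26, none past the threshold (adjusted p 0.973, 0.943 and 1). With the oncogene present, receptor loss gave 0.78 for Mrps6, as stated above, and no member passed. Without the last inferred slide, Mrps6, Mrpl39 and Mrpl40 changed there by 0.07, -0.15 and -0.45.

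The interaction of oncogene and receptor loss passed for no member and for 0.0174% of all genes. At an unadjusted p under 0.05, 4 members (5%) were higher, namely Mrpl48 (1.30 ± 0.48), Mrpl52 (1.25 ± 0.46), Mrps18c (1.40 ± 0.57) and Mrps23 (0.78 ± 0.35, named after its values were seen), and 0 were lower, against 6.86% and 2.77% of all genes. Without the last inferred slide these values were 0.50 for Mrpl48, 0.34 for Mrpl52, 0.48 for Mrps18c and 0.68 for Mrps23. No member had groups without overlap in any of the 4 pairwise comparisons, while 0.131% to 0.532% of all genes did. Her2/Neu+/IFNAR1-/- against WT glands, where Mrpl34 did not overlap, is not among the 4.

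Other genes of mitochondrial translation were read from lists. Of 4 measured mitoribosomal subunits that carry other names, 1 fell with the oncogene: Dap3, a GTP-binding protein of the small subunit, at -0.81 ± 0.19 (adjusted p 0.0228). It averaged -1.28 ± 0.52 in Her2/Neu+/IFNAR1-/- and -1.88 ± 0.76 in Her2/Neu+ glands, against -0.77 ± 0.38 in IFNAR1-/- and -0.76 ± 0.26 in WT glands. Of 13 translation factors measured, 2 fell with the oncogene and 0 rose. Tufm, the elongation factor that brings aminoacyl-tRNA to the mitochondrial ribosome, changed by -0.90 ± 0.23 (0.0353) and was also called in Her2/Neu+/IFNAR1-/- against IFNAR1-/- glands, at -1.20 ± 0.30 (0.0430). Mtres1, which acts in the rescue of stalled mitochondrial ribosomes, changed by -0.87 ± 0.20 (0.0173). Of 19 assembly factors, 19 mitochondrial aminoacyl-tRNA synthetases and 15 genes of mitochondrial transcription and biogenesis, none passed in that comparison, and their medians were -0.20, 0.00 and 0.22. Of the 37 complex I genes 6 fell and 0 rose, with 37 of 37 negative and a median of -0.52. Of the 71 cytosolic ribosomal protein genes none passed, and their median was -0.18.

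The members' changes differed with the share of repeated values, a split made after the data had been seen. For the 49 members with repeated values on under 10% of their probe values, the change in Her2/Neu+ against WT glands was negative for 44, with a median of -0.40. For the other 31 it was negative for 17, with a median of -0.06. In the oncogene comparison the same split gave 45 of 49 negative (median -0.29) and 15 of 31 negative (median 0.00), and all 4 calls lay among the 49. The part of repeated values in these differences was not tested.

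**Figure D5:**
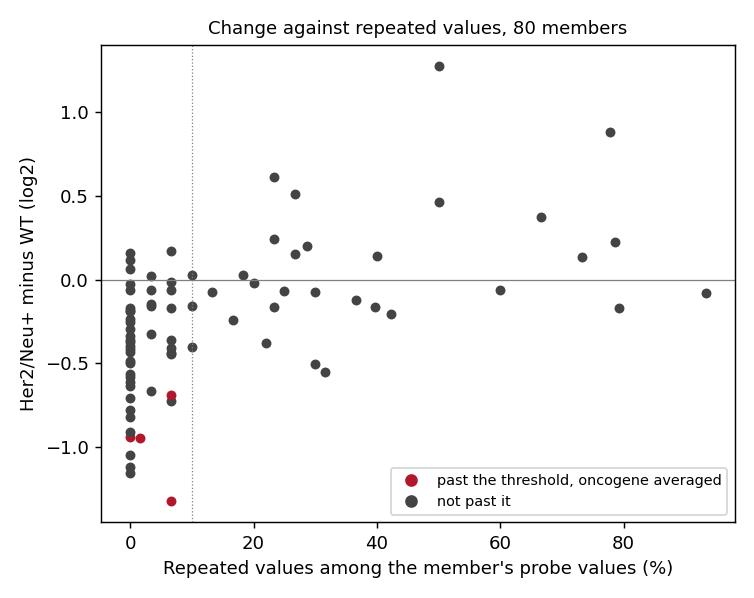
Change in Her2/Neu+ minus WT glands (log2) of each of the 80 members against the percentage of its probe values that are repeated values, with a dotted line at 10%. Left of the line 44 of 49 members are below 0, and at or right of it 17 of 31.

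Probes of 1 gene often disagreed. Of 16 members with 2 probes, the correlation of the probes over the arrays was below 0 for 10 and reached 0.4 for 2, Mrps36 (0.692) and Mrpl40 (0.440). The values of a member with 1 probe, which includes Mrpl39 and Mrpl30, carry no such check.

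The promoters of the members were read from RefSeq (GRCm38.p6), as a window of 250 bases before to 50 after the start site, to see what the genes share in sequence. Of 80 members, 68 had a promoter in the table. The letters CGCATGCG, bound by NRF1, a regulator of nuclear genes for mitochondria, were present on either strand in 7 of 68 members (10.3%) and in 2.77% of 17492 protein-coding genes. The letters CCGGAAGT, bound by ETS factors including GABPA, were in 12 members (17.6%) and in 5.69% of the protein-coding genes, and AAGATGGC, bound by YY1, in 12 members (17.6%) and 3.57%. At least 1 of the 3 was in 29 members (42.6%), against 11.3% of the protein-coding genes, and no 2 of them overlapped in a member's promoter. The oncogene change was negative for 21 of these 29 members, with a median of -0.21, and for 32 of the 39 without any of the 3 in this window, with a median of -0.19. Members with and without the letters thus had like medians. A match is a description of letters and not of a bound site.

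The 250 bases before the start site are shown for the 3 members past the threshold that have a promoter in the table, and for Mrps18b and Mrps18c, paralogs that carry different letters. The capitals mark CGCATGCG in Mrpl39, 124 bases before the start site, and in Mrps18b, 224 bases before it, and the reverse strand of CCGGAAGT in Mrps18c, 157 bases before it. Mrps36 and Mrpl30 hold none of the 3 in this window.
Mrpl30 (chr1:37890227-37890476, plus strand): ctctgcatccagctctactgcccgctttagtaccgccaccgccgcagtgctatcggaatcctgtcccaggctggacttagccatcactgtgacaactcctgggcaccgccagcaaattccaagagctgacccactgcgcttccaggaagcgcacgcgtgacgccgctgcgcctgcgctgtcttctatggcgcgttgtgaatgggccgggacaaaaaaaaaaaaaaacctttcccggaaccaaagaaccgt
Mrpl39 (chr16:84735245-84735494, minus strand): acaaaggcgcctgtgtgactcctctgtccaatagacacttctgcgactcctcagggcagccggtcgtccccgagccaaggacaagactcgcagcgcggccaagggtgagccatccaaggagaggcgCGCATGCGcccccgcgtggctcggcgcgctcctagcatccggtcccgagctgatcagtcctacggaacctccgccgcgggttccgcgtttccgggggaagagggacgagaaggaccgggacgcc
Mrps36 (chr13:100744660-100744909, minus strand): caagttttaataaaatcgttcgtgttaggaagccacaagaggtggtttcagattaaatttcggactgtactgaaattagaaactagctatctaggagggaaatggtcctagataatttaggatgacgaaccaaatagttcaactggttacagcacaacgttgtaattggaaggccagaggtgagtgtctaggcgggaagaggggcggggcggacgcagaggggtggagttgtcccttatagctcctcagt
Mrps18b (chr17:35916441-35916690, minus strand): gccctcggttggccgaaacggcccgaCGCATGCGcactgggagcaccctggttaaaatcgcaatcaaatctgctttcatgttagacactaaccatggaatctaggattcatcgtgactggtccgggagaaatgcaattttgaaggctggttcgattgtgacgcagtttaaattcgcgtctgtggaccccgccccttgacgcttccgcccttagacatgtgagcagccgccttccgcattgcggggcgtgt
Mrps18c (chr5:100798509-100798758, plus strand): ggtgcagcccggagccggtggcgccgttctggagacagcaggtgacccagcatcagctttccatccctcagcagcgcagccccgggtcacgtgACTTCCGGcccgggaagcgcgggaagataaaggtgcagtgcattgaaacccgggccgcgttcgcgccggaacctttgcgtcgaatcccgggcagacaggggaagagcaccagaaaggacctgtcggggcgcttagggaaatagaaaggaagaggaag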

How the data were processed

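The values are log2 ratios of gland RNA (Cy5) over universal mouse reference RNA (Cy3) on 2-colour Agilent arrays, as deposited by the authors, with dyes and labelling kit per the labels' protocols. Base 2 was inferred from the limits of the values at 6 and -6. Scanner software, background correction, normalization and the authors' probe filter are not given in the sources used here. Symbols came from the platform annotation: 17376 of 20896 probes carried 1 symbol and 3520 none. Named probes measured on 50% or more of the arrays in each group were kept (16247), and probes of 1 gene were averaged, giving 11463 genes. No scaling was added.

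The tool was limma 3.58.1 (R 4.3.3), with lmFit and eBayes and no variance trend. A single fit over 30 arrays had a mean per group and 7 contrasts. Tests were two-sided, and the threshold was an adjusted p of 0.05 (Benjamini-Hochberg over the whole table). The labels do not say how the glands were drawn from mice beyond numbering the samples, so the p-values reflect only the spread among arrays. No pair of arrays had the same value for over 50% of the probes. The fit was tested on simulated data.

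The members and lists were chosen with earlier results of these data known. Named members are those past the threshold in any contrast, the 4 with the smallest p in each pairwise and averaged contrast, the 3 with the highest and the 3 with the lowest mean ratio, Mrpl12, Mrps12 and the Mrps18 family. Of other lists, genes past the threshold may be named. Slides were inferred from block numbers in the labels.

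Alternatives were quantile normalization, median centring, other filters on blank values, the probe of largest SD, the compared groups alone, array weights, a variance trend, slide, array set or block number in the fit, repeated values set to missing, and arrays left out singly, by slide or for muscle markers. Leaving out all 6 arrays with high muscle markers, restricting to members with few repeated values and leaving out the 3 pseudogenes were chosen after seeing the data. Promoters were read from RefSeq's table (GRCm38.p6).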

Additional observations from a re-analysis of the deposited data

Results flagged for a closer look

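Of 104 groups of values looked at, which were 25 named members and the mean over all members in each of the 4 groups, 10 held 1 array whose gap to its nearest neighbour was large for the range of its group (Dixon's criterion). Chance gives such a gap in about 1 in 20 groups. All values are log2 ratios of gland over reference RNA.

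Mrpl13 stood at -4.17 on Her2/Neu+/IFNAR1-/- array 109, with the other arrays of that group between -2.16 and -1.33. In Her2/Neu+ glands it stood at -3.85 on array 114, with the others between -1.47 and -0.73. Mrps22 on Her2/Neu+/IFNAR1-/- array 109 was at 1.90, and the others of its group lay between -2.28 and -0.64. Mrpl18 was at -2.34 on Her2/Neu+/IFNAR1-/- array 108 (others -1.13 to -0.40) and at -3.10 on IFNAR1-/- array 41 (others -1.64 to -0.38). On that IFNAR1-/- array Mrps18c was at -3.37, against -1.38 to -0.64 on the others.

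The high values were those of Mrps18b on Her2/Neu+/IFNAR1-/- array 104, at 0.76 (others -0.48 to -0.00), Mrps21 on Her2/Neu+ array 119, at 1.80 (others 1.09 to 1.22), and Mrps14 on WT array 55, at 0.77 (others -1.02 to -0.32). The mean over the members was 0.13 on Her2/Neu+/IFNAR1-/- array 103, against -0.45 to -0.22 on the others of that group.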

How the results depend on the processing

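No member passed under any alternative or with any array left out in averaged receptor loss, the interaction, Her2/Neu+/IFNAR1-/- minus Her2/Neu+, or either single change against WT glands. Signs were followed for the 4 members with the smallest p in each pairwise and averaged comparison and for those past the threshold. None of these changes turned its sign, and other named changes were not followed. In the averaged oncogene comparison, 2 members passed in place of 4 (Mrps36 and Mrps36-ps2) with the inferred slide as a random block, with block number as a covariate and without the last inferred slide, and 1 (Mrps36-ps2) without the 6 arrays with high muscle markers. Counts near 4 were 5 with quantile normalization (Mrps26 added) and array weights (Mrpl34 added), and 3 with the probe of largest SD, with repeated values missing, without the pseudogenes, and without IFNAR1-/- 41, 42 and 44 (2 lower and Mrpl19 higher). Leaving out 1 array gave 2 to 4, with 2 without Her2/Neu+ 113, 114 or 119, Her2/Neu+/IFNAR1-/- 105, IFNAR1-/- 39, 44, 47 or 50, or WT 53, 54, 56 or 57. In Her2/Neu+/IFNAR1-/- minus IFNAR1-/- glands, 1 member passed. There were 3 after quantile normalization, 6 with array weights (1 higher and 5 lower), 2 without IFNAR1-/- 41, 42 and 44, 2 without the last inferred slide, 0 with the slide as a random block, 0 without the pseudogenes, and 1 to 2 with single arrays left out (2 without Her2/Neu+/IFNAR1-/- 104, IFNAR1-/- 41 or IFNAR1-/- 45). The median change of the members in Her2/Neu+ minus WT was -0.19, and -0.40 over the members with few repeated values. The cause of these shifts was not tested. The other medians of the members moved by less than 0.158, the SD of the array medians within groups, although that of Her2/Neu+/IFNAR1-/- minus Her2/Neu+ lay between -0.09 and 0.05 and that of the interaction between -0.01 and 0.19 over the alternatives. Over all genes, the count past the threshold ran from 73 (slide block) to 569 (array weights) around 295 for the oncogene, from 13 to 663 (the same settings) around 150 in Her2/Neu+/IFNAR1-/- minus IFNAR1-/-, from 3 to 202 around 15 in Her2/Neu+ minus WT, from 1 to 55 around 3 in IFNAR1-/- minus WT, from 4 to 12 around 9 in Her2/Neu+/IFNAR1-/- minus Her2/Neu+, from 5 to 23 around 8 for averaged receptor loss and from 0 to 3 around 2 for the interaction. No paired analysis was possible because the groups share no replicate numbers.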
